A study of Mus musculus with 12 samples.

Results

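The mitochondrial ribosomal protein mRNAs were examined as a group: the nuclear transcripts named Mrpl (49 genes, large subunit) or Mrps (29 genes, small subunit) followed by a number, with processed pseudogenes left out. The rule uses gene names only and gave 78 of the 55376 genes in the table. Of these, 77 passed the filter on low counts, and Mrpl53 had 0 counts in each of the 12 libraries. All 695 of its exon bases are also annotated, on the same strand, to Gm42688.

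The series compared 4T1 mouse mammary gland cancer cells carrying either a stably integrated METTL7A1 vector or the empty vector (mock cells), and asked how METTL7A1, a methyltransferase-like protein, affects which mRNAs ribosomes engage. RNA-Seq was performed on 2 pools of sucrose gradient fractions: sub-polysomal RNA (fractions 3 to 7, free ribosomal subunits and single ribosomes) and polysomal RNA (fractions 8 to 11). This gave 4 groups of 3 libraries, lettered A to C in mock cells and D to F in METTL7A1 cells. Both genotypes had been through G418 selection and were treated with cycloheximide at 0.1 mg/ml for 5 min before lysis. The METTL7A1 cDNA is driven by a CMV promoter, and the sources used here do not say whether each line was a clone or a pool. The study describes its 4T1 polysome gradients as run on biological triplicates, but the labels do not tie each letter to a culture. The p-values measure the spread between these libraries.

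Total counts ran from 1817520 to 5738989 in the sub-polysomal libraries and from 5358491 to 6966156 in the polysomal ones. The shallowest was mock sub-polysomal A. Mettl7a1 itself reached 989 to 2436 counts in METTL7A1 libraries, against 4 to 24 in mock ones. The epithelial markers Epcam, Krt8, Krt18, Krt19 and Cdh1 were detected in each library, at 56.5 to 1758 CPM (counts scaled to library size with TMM factors), whereas of the markers of other cell types Cd3e and Dpt were at 0 counts, Ptprc reached 1 count, Pecam1 2, Cdh5 4 and Csf1r 8. The fibroblast marker Pdgfra was seen in each library, at 4 to 43 counts and at most 5.87 CPM. Because a gradient pool is a bulk sample, fewer cells holding a transcript cannot be told apart from less of it per cell.

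Mitochondrial ribosomes translate the few mRNAs encoded by mitochondrial DNA, all of which code for subunits of the oxidative phosphorylation complexes. Their proteins are encoded in the nucleus, made on cytosolic ribosomes, and imported into the organelle, mostly with the help of an N-terminal presequence. Many descend from bacterial ribosomal proteins, and others are particular to mitochondria. The mRNAs studied here are therefore clients of the cytosolic ribosomes that the gradient separates, and the mitochondrial ribosomes they encode play no part in reading them.

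Most of these mRNAs encode short proteins. Over the 77 tested members the median was 196 residues (65 to 442), against 458 residues over the 10831 tested genes with an annotated coding transcript. The stretch around the start codon is shown for members at the ends of the change between pools, for examples of a shared start, and for Mrps11. Mrps11 and Mrpl54 were named for their difference between genotypes. Each sequence runs 5′ to 3′ and holds 12 bases of leader, the start codon in capitals, and 12 coding bases (GRCm38, principal transcript), and the capitals extend to ATGGCGGC where the start had it:
Mrpl42: ttgctaaggatcATGgctgcggcagta
Mrps21: aaatacgaggccATGgctaaacatctg
Mrpl33: aatcggtggaccATGctgctctccgct
Mrps24: cgccggcccaagATGgcgtggtccgcg
Mrps31: tgtatttacacgATGctccacagaatc
Mrps27: gtgcgctccaagATGGCGGCtcccatg
Mrps18a: gtgcgttccaagATGGCGGCcctcagg
Mrps30: cggcgggcgaaaATGGCGGCggccagg
Mrpl54: ccggccagcgtcATGGCGGCcgcccat
Mrps11: tcaatttcagtcATGcaggttttaaga

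These windows lie at chr10:95500435-95500461 (Mrpl42, minus strand), chr3:95870562-95870588 (Mrps21, minus), chr5:31613989-31614015 (Mrpl33, plus) and chr11:5707648-5707674 (Mrps24, minus). The others lie at chr8:22411454-22411480 (Mrps31, plus), chr13:99344791-99344817 (Mrps27, plus), chr17:46111006-46111032 (Mrps18a, plus), chr13:118387220-118387246 (Mrps30, minus), chr10:81266876-81266902 (Mrpl54, minus) and chr7:78783347-78783373 (Mrps11, plus). Each spans the end of the 5′ UTR and the first codons. The start ATGGCGGC, read only at the annotated start codon and on the transcript strand, was present in 19 of the 77 members (24.7%) and in 419 of 10548 genes (3.97%). Members with ATGGCGGC had longer proteins (median 265 residues against 183.5) and shorter leaders (median 40 bases against 113) than those without it. As Mrps27 and Mrps30 show, the same start stood on mRNAs whose changes between pools had opposite signs in mock cells.

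The members made up 0.653 to 1.09% of the counts of a library. Per kilobase of exon, levels averaged over the 12 libraries ran from 474.02 CPM for Mrpl12, the stalk protein of the large subunit, 469.50 for Mrpl33 and 411.89 for Mrpl20, both large subunit proteins with bacterial counterparts, down to 8.01 for Mrps33, 7.97 for Mrps36 and 5.21 for Mrpl48. Mrps36, despite its name, is known as a subunit of the 2-oxoglutarate dehydrogenase complex. The length used joins the exons of all annotated transcripts of a gene. Per kilobase of the principal transcript Mrpl20 (499.2 CPM) came before Mrpl12 and Mrpl33, whose values were the same on both lengths.

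Summed by gene name, the Mrpl mRNAs stood at 7036 ± 782 CPM (SD, n = 3) in mock sub-polysomal RNA and at 4302 ± 443 in mock polysomal RNA. In METTL7A1 cells the corresponding sums were 9053 ± 285 and 4228 ± 207. The Mrps mRNAs gave 3348 ± 280 and 1882 ± 230 in mock cells, and 3983 ± 179 and 1852 ± 80.8 in METTL7A1 cells. In both genotypes every sub-polysomal library was above every polysomal one for either subunit, and the polysomal sums of the genotypes overlapped while the sub-polysomal sums were separate. The polysomal sum of all members was 0.596 ± 0.0647 of the sub-polysomal mean in mock cells and 0.466 ± 0.0217 in METTL7A1 cells, or 0.782 and 0.646 when libraries were scaled by their totals alone. The ratio of Mrpl to Mrps sums was 2.10 ± 0.0943 in mock sub-polysomal RNA and 2.29 ± 0.0551 in mock polysomal RNA. These libraries did not overlap (at most 2.18 against at least 2.25), so that the Mrps sum was reduced somewhat more than the Mrpl sum. In the METTL7A1 pools the ratio was 2.27 ± 0.0306 and 2.28 ± 0.0424, with overlap.

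**Figure D1:**
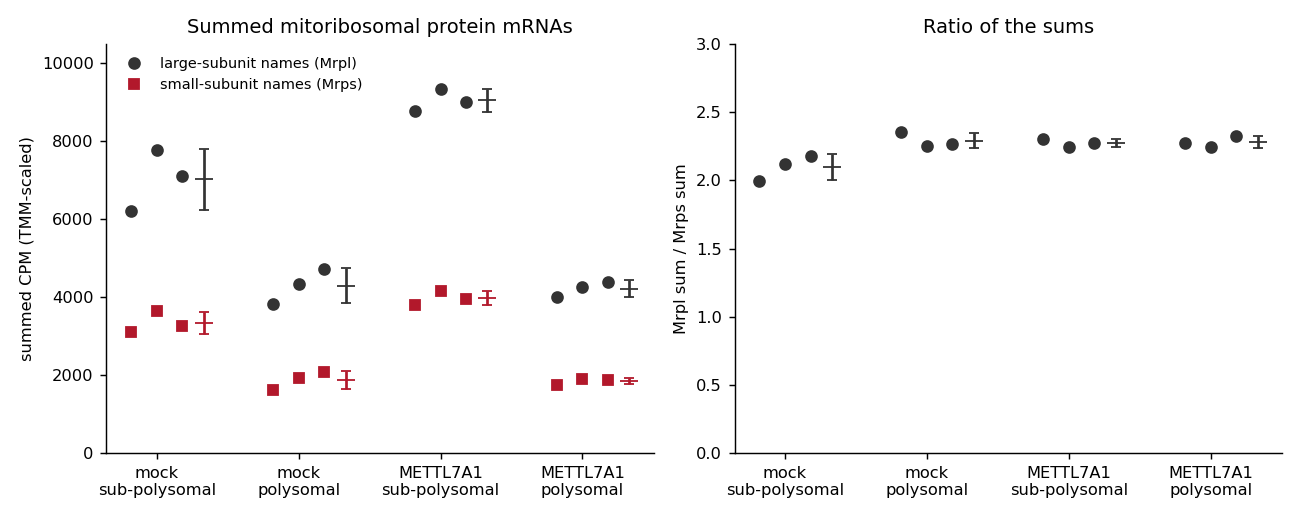
Summed level (CPM after TMM scaling, vertical axis) of the Mrpl and the Mrps mRNAs in each of the 12 libraries, with the mean and SD (n = 3) of each group, and at right the ratio of the sums. The Mrpl means fall from 7036 to 4302 between the pools of mock cells and from 9053 to 4228 between those of METTL7A1 cells.

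To learn how these mRNAs were distributed on the gradient, polysomal RNA was compared with sub-polysomal RNA within each genotype. Each library was scaled on its own, so that a change is relative to the other mRNAs of the pool. It does not give the fraction of an mRNA that was on polysomes. In mock cells 51 of the 77 members were lower in the polysomal pool and 4 were higher (edgeR's quasi-likelihood test, adjusted p below 0.05), where 23.7% of the 12224 tested genes were lower and 23.3% higher. In METTL7A1 cells 56 were lower and 4 higher, with 29.3% of all tested genes lower and 30% higher. The median log2 change was -0.59 for the members and 0.05 for all genes in mock cells, and -1.02 and 0.06 in METTL7A1 cells. The study set thresholds for METTL7A1 against mock cells in total RNA (adjusted p below 0.01 and a log2 change beyond 1.5). Applied here to the pools, 10 members passed in mock cells and 19 in METTL7A1 cells, all of them lower. Of all genes 7.55% and 12.1% passed in either direction. With library totals in place of TMM the split was 33 lower and 12 higher in mock cells and 45 lower and 17 higher in METTL7A1 cells, with medians of -0.19 and -0.55 where all genes had 0.45 and 0.53. Under that scaling 14.6% of all genes were lower and 46.1% higher in mock cells, and 18.5% and 49.8% in METTL7A1 cells.

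The 3 libraries of one pool did not overlap those of the other for 53 members that were lower and 6 that were higher in mock polysomal RNA, where 24.7% and 27.2% of all genes were so separated. In METTL7A1 cells these were 59 and 6 members, against 32.3% and 34.5% of all genes. Of the members that were lower, 50 were lower in both genotypes, which is 98.0% of the 51 in mock cells and 89.3% of the 56 in METTL7A1 cells. The 2 higher in both were Mrpl16 and Mrps31.

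Mrpl42 (chr10:95480806-95501940, minus strand), a protein of the large subunit that is particular to mitochondria, had the lowest log2 change between pools of the members in mock cells. It measured 280, 417 and 379 CPM in mock sub-polysomal A, B and C and 34.8, 82.9 and 80.9 in the polysomal libraries. The METTL7A1 libraries D, E and F gave 394, 505 and 554 against 81, 79.6 and 87.6. In either genotype every sub-polysomal value was far above every polysomal one. The log2 change was -2.44 (SE 0.25, adjusted p = 8.52e-07, edgeR's quasi-likelihood test) in mock and -2.55 (SE 0.25, adjusted p = 1.76e-07) in METTL7A1 cells.

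Mrps21, the small subunit counterpart of bacterial S21 and at 87 residues the shortest Mrps protein, fell from 206, 229 and 181 CPM to 17.5, 49.2 and 58 in mock cells. In METTL7A1 cells it fell from 158, 170 and 182 to 28.8, 35.8 and 32.5. The pools were wide apart in both, with log2 changes of -2.30 (SE 0.27, adjusted p = 2.99e-06, edgeR) and -2.39 (SE 0.27, adjusted p = 8.26e-07). Mrpl33, the shortest of all members at 65 residues, behaved alike: 312, 453 and 335 CPM became 39.9, 93.7 and 106 in mock polysomes (log2 change -2.20, SE 0.25, adjusted p = 1.97e-06). In METTL7A1 cells 373, 374 and 373 CPM became 76.6, 78.3 and 79.5 (log2 change -2.26, adjusted p = 5.61e-07). Its polysomal values were thus set apart from its sub-polysomal ones by several times the spread within either pool.

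Mrps24, the counterpart of bacterial S3, had the strongest decrease in METTL7A1 cells. It stood at 195, 294 and 217 CPM in mock sub-polysomal RNA, and at 47.1, 79.9 and 95.9 in mock polysomes. In METTL7A1 cells it stood at 393, 409 and 417 against 64.2, 66 and 74.1. The polysomal values of the genotypes overlapped, whereas the METTL7A1 sub-polysomal values were all above the mock ones, and the log2 changes between pools were -1.66 (SE 0.21) in mock and -2.58 (SE 0.21, adjusted p = 4.5e-08, edgeR) in METTL7A1 cells.

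At the other end was Mrps31, a small subunit protein particular to mitochondria with a chain of 384 residues. Its values were 25.4, 21.7 and 25.3 CPM in mock sub-polysomal and 39.7, 32.6 and 42.6 in mock polysomal RNA, and 24.2, 15.6 and 19.4 against 36.9, 44.7 and 46.3 in METTL7A1 cells. All polysomal values lay above all sub-polysomal ones, and the log2 changes were 0.67 (SE 0.17, adjusted p = 0.00341, edgeR) and 1.12 (adjusted p = 1.92e-05). Mrps27, a small subunit protein that also binds RNA, was higher in mock polysomes (47.4, 44.3 and 44.7 CPM against 33.3, 29 and 34.3, log2 change 0.50, SE 0.13, adjusted p = 0.00546) and had a log2 change of 0.01 (adjusted p = 0.933) in METTL7A1 cells. The difference between genotypes is covered by the test of the shift, which no member passed.

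Mrpl16 and Mrpl24, large subunit proteins with bacterial counterparts, were the other 2 that rose in mock cells. Mrpl16 gave 51.4, 53.8 and 55.1 CPM against 77.8, 64.3 and 67.5 in mock and 40.5, 39.9 and 28.2 against 70.4, 66.8 and 61.1 in METTL7A1 cells (log2 change 0.38, adjusted p = 0.0416, and 0.87, adjusted p = 7.73e-05, edgeR). Mrpl24 had a log2 change of 0.46 (SE 0.15, adjusted p = 0.0146) in mock cells and 0.28 (adjusted p = 0.103) in METTL7A1 cells. Of its exon bases 38.2% overlap Rrnad1 on the opposite strand, which had 14.9 CPM, and the strand setting of the counting is not given in the sources used here. The call of Mrpl24 was lost without mock replicate C (adjusted p = 0.135), and those of Mrpl24 (0.0967) and Mrps27 (0.0545) with Actb scaling. In METTL7A1 cells the other 2 were Mrpl39 (0.56, adjusted p = 0.003) and Mrpl9 (0.44, adjusted p = 0.00986), which had 0.17 (adjusted p = 0.349) and 0.31 (adjusted p = 0.0693) in mock cells. The call of Mrpl39 was lost with Actb scaling (adjusted p = 0.137) and with GC offsets (0.107).

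**Figure D2:**
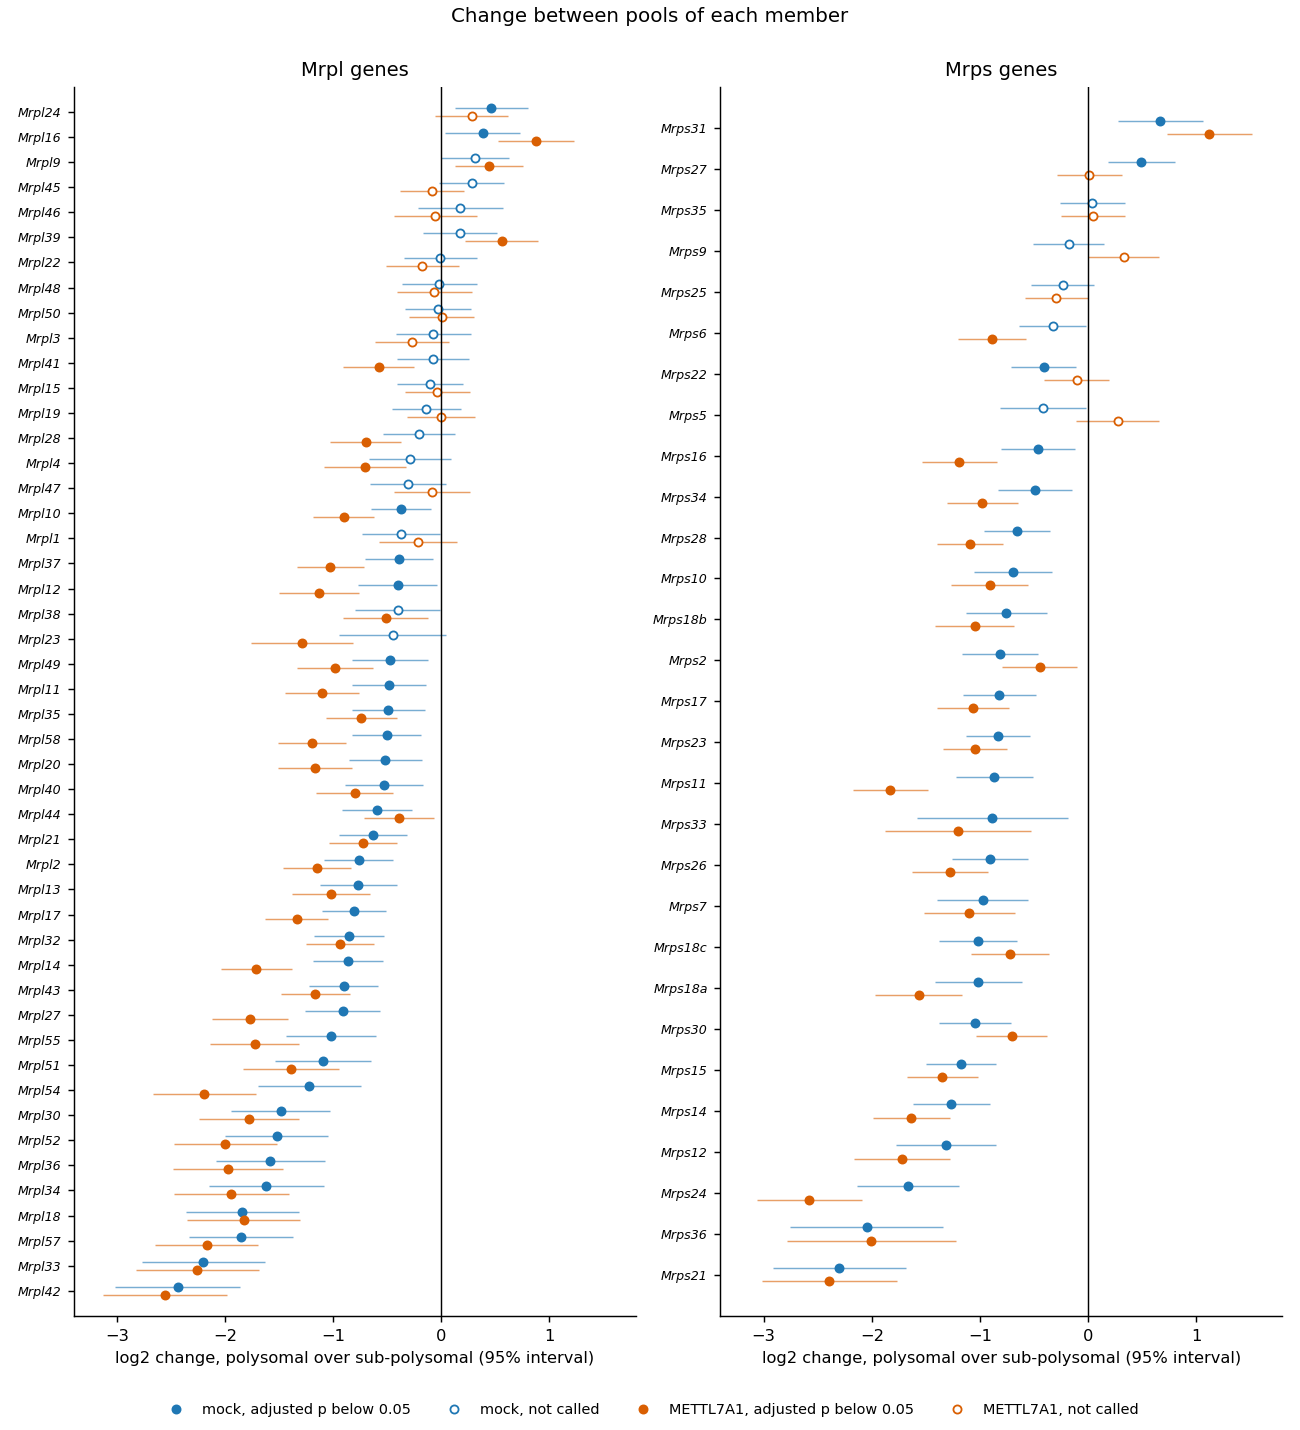
Log2 change of each tested member between polysomal and sub-polysomal RNA (horizontal axis, with its 95% confidence interval) in mock (blue) and METTL7A1 (orange) cells, with Mrpl and Mrps genes in separate panels and ordered by the mock value. Filled points passed an adjusted p of 0.05, and the members run from -2.44 (Mrpl42) to 0.67 (Mrps31) in mock cells.

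By position in the particle, 18 of the 30 large subunit proteins with a bacterial counterpart were lower in mock polysomes and 2 were higher, and of the 20 tested that are particular to mitochondria 13 were lower. Among small subunit proteins 13 of the 16 with a bacterial counterpart were lower, and of the 10 particular ones 6 were lower and 2 higher. In METTL7A1 cells the lower counts were 21, 15, 14 and 5 in the same order, and the higher counts 2, 1, 0 and 1. Of all tested genes 23.7% were lower and 23.3% higher in mock cells, and 29.3% and 30% in METTL7A1 cells. Protein length was not accounted for in these counts by class, nor in those by name. Sorted by name, 29 of 48 Mrpl and 22 of 29 Mrps were lower in mock cells (median log2 change -0.49 and -0.82), and 34 and 22 in METTL7A1 cells (-0.96 and -1.05).

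Some members are set apart by their place or by another role. Mrps30 and Mrps18a sit in the large subunit despite their names. Mrps30, with 442 residues the longest member, fell from 100, 98.5 and 109 CPM to 45.1, 49.9 and 54.4 in mock cells (log2 change -1.05, adjusted p = 1.57e-05, edgeR). In METTL7A1 cells it went from 103, 127 and 96.6 to 74.4, 67.7 and 57.8 (log2 change -0.71, adjusted p = 0.00034), a call lost with library totals (log2 change -0.23, adjusted p = 0.153). Mrps18a gave -1.01 (adjusted p = 0.000121) and -1.57 (adjusted p = 7.17e-07).

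Mrpl12, which also binds the mitochondrial RNA polymerase, measured 534, 680 and 555 CPM against 389, 437 and 514 in mock cells. The pools came close to each other there (log2 change -0.40, adjusted p = 0.0448), and the call was lost under 8 of the alternatives, among them library totals (-0.01) and leaving out mock replicate B (-0.27). In METTL7A1 cells the same mRNA went from 1006, 1039 and 958 to 407, 446 and 520 CPM (log2 change -1.13, adjusted p = 9.05e-06, edgeR). Mrpl58, a peptidyl-tRNA hydrolase that frees stalled mitochondrial ribosomes, had -0.50 (adjusted p = 0.00592, lost without mock replicate B at -0.36 and with library totals at -0.11) and -1.20. Mrps12, the decoding centre protein of the small subunit, fell by 1.31 and by 1.72 on the log2 scale. Mrps36 fell by 2.05 and by 2.00, on 11 to 43 counts a library.

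**Figure D3:**
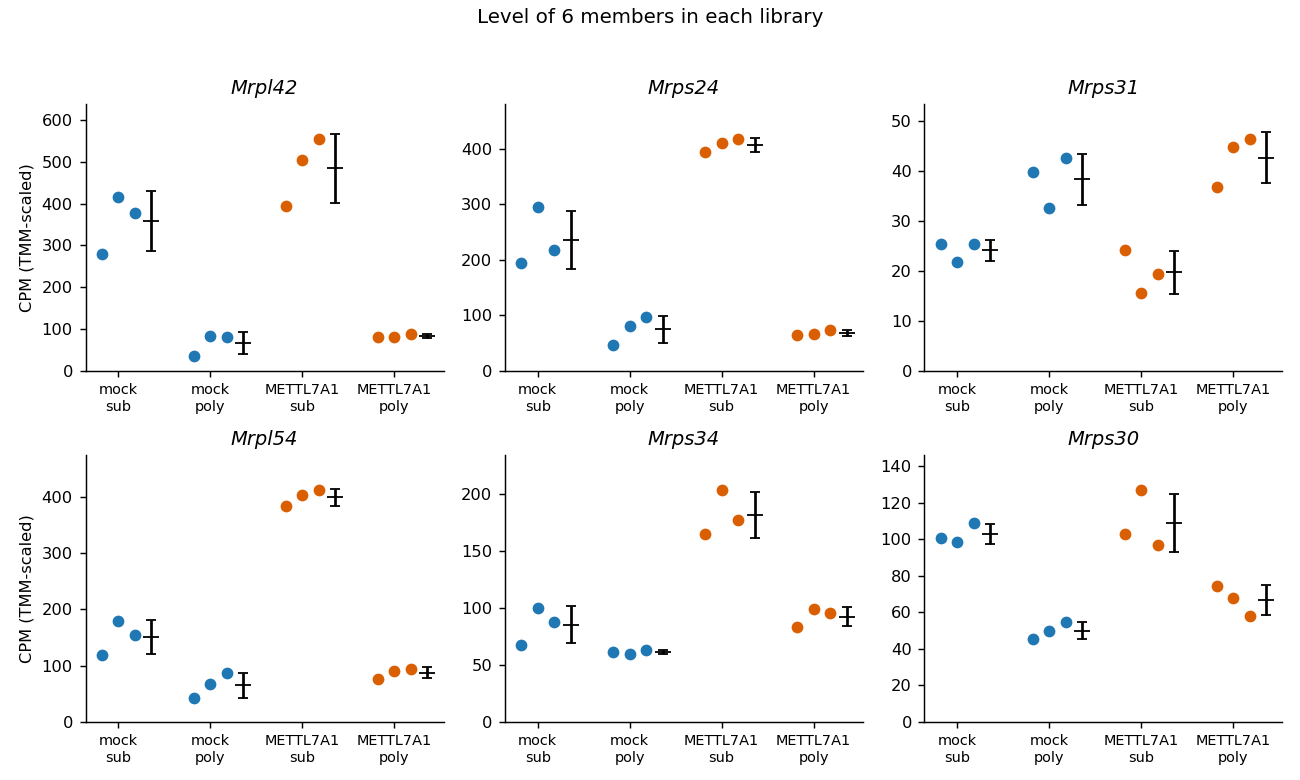
Level in each library (CPM after TMM scaling, linear vertical axes from 0) of 6 members by group. Points are the 3 libraries of a group in letter order, and the bar beside them gives the mean and SD. For Mrpl42 the mock sub-polysomal libraries reach 417 CPM and the mock polysomal ones lie at 34.8 to 82.9.

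The change between pools followed the length of the encoded protein. The 23 members of at most 150 residues had a median log2 change of -1.09 in mock cells, with 20 lower and 0 higher, and of -1.72 in METTL7A1 cells, where all 23 were lower. The 27 members of 150 to 250 residues had -0.65 (22 lower, 1 higher) and -1.04 (22 lower, 0 higher). The 27 longer ones had -0.29 (9 lower, 3 higher) and -0.10 (11 lower, 4 higher). Across the 77 members Spearman's rho between protein length and the log2 change was 0.64 in mock and 0.73 in METTL7A1 cells, where all genes gave 0.55 and 0.54 and the cytosolic ribosomal proteins 0.60 and 0.63. These describe mRNAs that share the same libraries, and are not independent replicates.

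The relation held within both subunits, with a rho of 0.69 and 0.74 for Mrpl and 0.50 and 0.68 for Mrps, and was -0.02 and -0.05 for the length of the 5′ leader. With the exon length of the table, which includes untranslated and alternative exons, the members gave 0.404 and 0.493. Set against genes of like protein length, 58 members fell in the shortest quartile of all genes (25 to 285 residues), and 45 of them (77.6%) were lower in mock and 49 (84.5%) in METTL7A1 cells. Of all genes in that quartile 50.3% and 58.0% were lower, with medians of -0.51 and -0.68 against -0.81 and -1.15 for the members. The other 19 members, of 291 to 442 residues, had medians of -0.29 and -0.10 where the quartile they fall in (286 to 458 residues) had 0.05 and 0.07. Members with the ATGGCGGC start had medians of -0.40 and -0.21, and those without it -0.76 and -1.08. Over all genes the order was the reverse, with -0.03 and -0.02 for genes with that start and 0.13 and 0.15 for those without it. The members with it also had the longer proteins (median 265 residues against 183.5), and the part of the start was not tested.

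**Figure D4:**
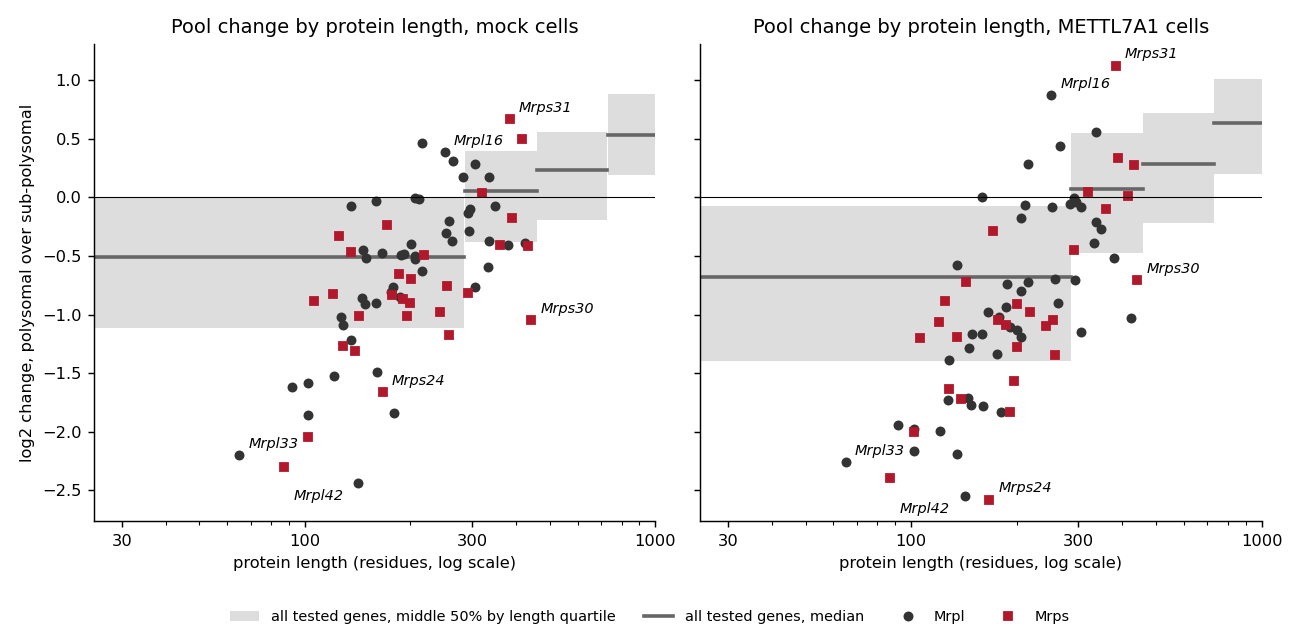
Log2 change between polysomal and sub-polysomal RNA (vertical axis) against protein length in residues (log scale) for the Mrpl and Mrps members in mock and METTL7A1 cells. Grey boxes hold the middle 50% of all tested genes in each quartile of protein length with a line at the median, which is -0.51 in the shortest quartile of mock cells, and the members of at most 150 residues lie lowest.

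Single libraries stood out among the members. Mock polysomal A was the lowest of its group for 44 of the 77 members (57.1%) and for 22 of the 23 of at most 150 residues, where it was the lowest for 40.0% of all tested genes. In METTL7A1 polysomal RNA, D was the lowest for 50 of the 77 (64.9%) and for 19 of those 23, against 39.7% of all tested genes. Mock sub-polysomal A was the lowest for 45 members (58.4%) and for 14 of the 23, against 38.8% of all tested genes. Transcripts encoded by mitochondrial DNA took 6.71 to 8.49% of the counts in mock sub-polysomal and 0.684 to 2.14% in mock polysomal RNA, and 4.37 to 7.67% and 1.04 to 1.46% in METTL7A1 cells. The part of these libraries or of the mitochondrial transcripts in the results above was not tested, other than by leaving out each replicate. Without mock replicate A, 54 members were lower and 3 higher in mock cells, and 57 and 5 in METTL7A1 cells.

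The other genes of the pathway did not all share the pattern. Of the 5 mitochondrial ribosomal proteins with other names 3 were lower in each genotype, from Chchd1 (-1.84 and -2.45) to Dap3, the GTP-binding protein of the small subunit (-0.15, adjusted p = 0.487, and 0.38, adjusted p = 0.0544). Of 14 tested mitochondrial translation factors 4 were lower and 2 higher in mock cells, and 2 lower and 5 higher in METTL7A1 cells, with Slirp, a partner of Lrpprc that stabilises mitochondrial mRNAs, the lowest (-1.46 and -1.78) and Taco1, a translational activator, the highest in mock cells (0.68). Of 26 assembly factors 9 and 10 were lower and 2 and 2 higher, among them the helicase Dhx30 (0.93 and 0.60). In mock cells 28.6% of the translation factors were lower and 14.3% higher, beside 23.7% and 23.3% of all tested genes. In METTL7A1 cells these shares were 14.3% and 35.7%, beside 29.3% and 30%. The assembly factors had 34.6% lower and 7.69% higher in mock cells. Protein length was not accounted for in these counts, and among the translation factors it ran from 112 (Slirp) to 1392 residues (Lrpprc).

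The families nearest in kind were lower as well. Of 75 tested cytosolic ribosomal protein mRNAs 62 were lower and 0 higher in mock cells (median log2 change -0.94), and 63 lower and 2 higher in METTL7A1 cells (-1.33). Of 78 tested nuclear mRNAs for oxidative phosphorylation 57 were lower and 0 higher (-1.02), and then 63 and 7 (-1.34). The members' shares, 51 and 56 of 77, lay below those of both families, where 23.7% and 29.3% of all tested genes were lower. These families encode shorter proteins, with medians of 151 and 142 residues against 196. Within the shortest quartile of protein length, 86.8% and 84.1% of the families were lower in mock cells, against 77.6% of the members. In METTL7A1 cells these shares were 88.2% and 93.7%, against 84.5%.

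METTL7A1 cells were next compared with mock cells within each pool. In polysomal RNA 4 members were higher and 1 lower, against 9.69% and 8.28% of all tested genes, and 0 passed the study's thresholds, where 2.13% of genes did. The median log2 change was -0.04 for the members and -0.01 for all genes. In sub-polysomal RNA 19 were higher and 3 lower, against 16.8% and 14.5% of all genes, 0 passed the study's thresholds (2.76% of genes), and the medians were 0.21 and -0.00. Groups without overlap numbered 7 members higher and 12 lower in polysomal RNA (18.9% and 17.7% of all genes), and in the sub-polysomal pool 30 were higher and 5 lower (23.5% and 20.5%). Whether the genotype difference itself differed between the pools is what the shift tests.

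Scaling bore on these splits, and on those of all genes. Scaled to Actb, the sub-polysomal pool had 36 members higher and 0 lower (26.9% and 5.46% of all genes), with the median of all genes moved to 0.26, and polysomal RNA 3 higher and 0 lower (10.1% and 4.05%). With library totals the sub-polysomal split was 13 higher and 6 lower (11.7% and 21.6%), and the polysomal one 2 higher and 5 lower (7.06% and 11.3%). With offsets for GC content they were 23 higher and 0 lower (14.9% and 13.4%), and 5 higher and 3 lower (13.7% and 12.5%). Without mock replicate A, polysomal RNA gave 3 higher and 8 lower (10.9% and 10% of all genes).

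In sub-polysomal RNA the largest rise was that of Mrpl54, a large subunit protein particular to mitochondria. It stood at 119, 180 and 154 CPM in mock and at 384, 403 and 412 in METTL7A1 cells, whereas the polysomal values were 41.6, 66.7 and 86.6 against 77, 91.2 and 94.5. The sub-polysomal groups were well apart (log2 change 1.40, SE 0.20, adjusted p = 7.18e-05, edgeR) and the polysomal ones overlapped (0.43, adjusted p = 0.157). Mrps34, a small subunit protein particular to mitochondria that the integrity of the subunit depends on, rose from 67.7, 100 and 87.8 to 164, 203 and 177 CPM (log2 change 1.08, SE 0.15, adjusted p = 3.91e-05). Mrps34 and Mrpl54 were also the members with the highest transcript GC content, 60.6% and 60.4%. With GC offsets their changes were 0.49 (adjusted p = 0.00774) and 0.82 (adjusted p = 0.00135).

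Mrps11, the counterpart of bacterial S11, rose from 54.2, 74.9 and 71.1 CPM to 146, 141 and 114 (log2 change 0.99, SE 0.15, adjusted p = 0.000111, edgeR). Its polysomal values, 36.7, 35.5 and 38.7 in mock and 32.6, 40.7 and 39.6 in METTL7A1 cells, overlapped. Also higher were Mrps24 (0.79, adjusted p = 0.00593), Mrpl12 (0.76, adjusted p = 0.00143), Mrps12 (0.58, adjusted p = 0.0277) and Mrpl58 (0.45, adjusted p = 0.0198). By name 13 of 48 Mrpl (27.1%) were higher and 1 (2.08%) lower, and 6 of 29 Mrps (20.7%) were higher and 2 (6.90%) lower. Of all tested genes 16.8% were higher and 14.5% lower, so that the Mrps share higher was close to that of all genes.

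The 3 that fell in sub-polysomal RNA were Mrpl16, Mrps9 and Mrps2, the last 2 being counterparts of bacterial S9 and S2. Mrpl16 went from 51.4, 53.8 and 55.1 CPM to 40.5, 39.9 and 28.2 (log2 change -0.57, SE 0.16, adjusted p = 0.0102), with METTL7A1 F the lowest by far, and the call was lost without replicate F (adjusted p = 0.0713). Mrps9 went from 61.5, 74.6 and 56.3 to 41.8, 50.9 and 43.5 (log2 change -0.49, adjusted p = 0.0157), a call lost without mock replicate B (adjusted p = 0.0904), METTL7A1 replicate D (0.0746) or F (0.0629). Mrps2 had a log2 change of -0.45 (adjusted p = 0.0313). With Actb scaling or GC offsets 0 members were lower. Mrps36 had -0.57 (adjusted p = 0.152).

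Transcript GC content ran along with the sub-polysomal difference. Split into 3 by GC, the 26 lowest members had a median log2 change of 0.01 with 2 higher and 0 lower, the 25 in the middle 0.14 with 5 and 3, and the 26 highest 0.41 with 12 and 0. All genes in the same GC ranges had medians of -0.26, -0.09 and 0.36. Spearman's rho with GC was 0.48 over the members and 0.44 over all genes. The part of GC content in the sub-polysomal result was not tested beyond the offsets given above, under which 23 members were called.

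**Figure D5:**
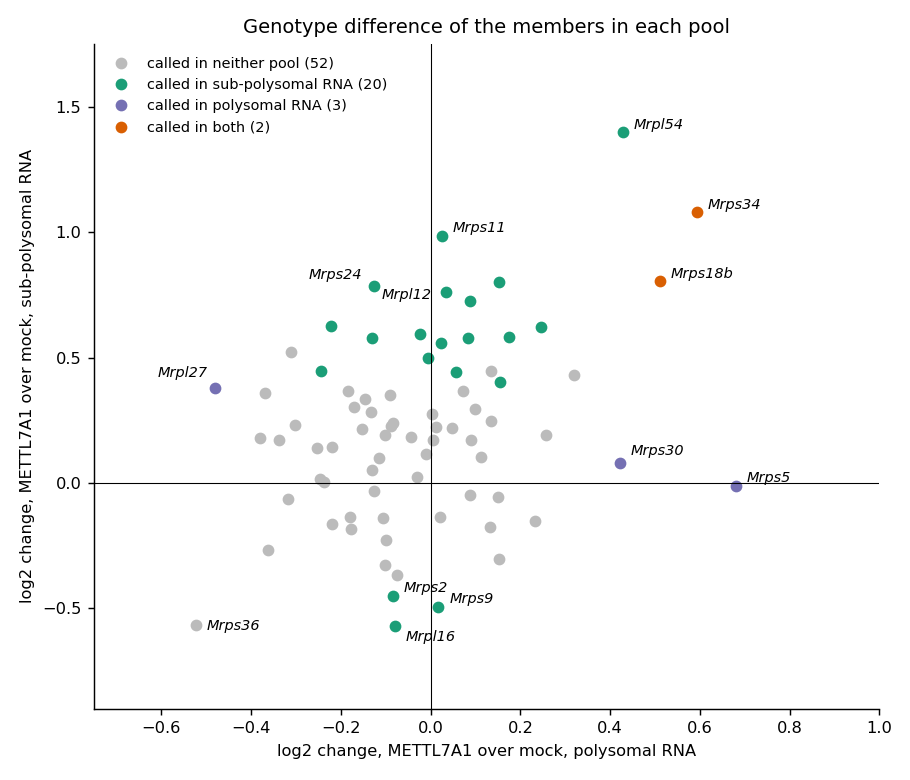
Log2 change between METTL7A1 and mock cells in sub-polysomal RNA (vertical axis) against that in polysomal RNA (horizontal axis) for each tested member, with points coloured by the pool in which they passed an adjusted p of 0.05. Mrpl54 lies highest at 1.40, and Mrps5 farthest to the right at 0.68.

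In polysomal RNA the 4 that rose were Mrps5, Mrps34, Mrps18b and Mrps30. Mrps5, the counterpart of bacterial S5, stood at 42.1, 37.7 and 38.3 CPM in mock and 69.3, 66.8 and 52.9 in METTL7A1 polysomes, with no overlap (log2 change 0.68, SE 0.16, adjusted p = 0.00692, edgeR). Its sub-polysomal values overlapped, at 59.3, 51 and 48.8 against 61, 57.6 and 38.496. Mrps34 rose from 61.4, 59.2 and 62.9 to 82.9, 98.7 and 95.3 (0.59, SE 0.14, adjusted p = 0.00769). Without METTL7A1 replicate E the log2 changes of Mrps5 (0.64, adjusted p = 0.0532) and Mrps34 (0.54, adjusted p = 0.0609) were close to those with it and missed the threshold.

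Mrps18b, one of the Mrps18 paralogues of the small subunit, was at 39.7, 44.4 and 50.5 CPM in mock and 65.8, 66.8 and 59.3 in METTL7A1 polysomes (0.51, adjusted p = 0.0313). In sub-polysomal RNA its values were 53.6, 80.6 and 89.4 against 140, 133 and 124 (0.80, adjusted p = 0.00103). Together with Mrps34 it was higher in both pools, with no overlap in either. Of its exon bases 59.1% overlap Gm16279 on the opposite strand, which had 0.789 CPM. Its polysomal call was lost without mock replicate B (adjusted p = 0.0905) and without METTL7A1 replicate D (0.105), E (0.149) or F (0.0549). Mrps30 had 0.42 (adjusted p = 0.0464). Of the 5 calls in polysomal RNA 0 held under all 16 alternatives.

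The 1 that fell was Mrpl27, the counterpart of bacterial L27, which lies near the peptidyl transferase centre. It measured 39.9, 54.2 and 59.9 CPM in mock polysomes and 35.5, 37.2 and 37.7 in METTL7A1 polysomes, so that mock A was close to the METTL7A1 values and the others were above them (-0.48, SE 0.15, adjusted p = 0.0324, edgeR). The call was lost without mock replicate B (adjusted p = 0.11) or C (0.16), and without METTL7A1 replicate D (0.112), E (0.119) or F (0.0858). In sub-polysomal RNA it stood at 88, 96.3 and 104 against 114, 136 and 126 (0.38, adjusted p = 0.0587). Mrps6 had -0.38 (adjusted p = 0.0558) in polysomal RNA, and Mrps36 -0.52 (adjusted p = 0.348).

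Among the other genes of the pathway, 5 of 14 tested translation factors were lower and 0 higher in METTL7A1 sub-polysomal RNA (median log2 change -0.28), with the initiation factor Mtif2 the lowest at -1.28. Of the 26 assembly factors 5 were higher and 2 lower, led by Mpv17l2 (1.10). The cytosolic ribosomal proteins had 14 higher and 4 lower of 75, and the oxidative phosphorylation genes 19 and 4 of 78. As shares higher these are 19.2% of the assembly factors, 18.7% and 24.4%, beside 16.8% of all tested genes. As shares lower they are 35.7% of the translation factors and 7.69% of the assembly factors, beside 14.5% of all tested genes. The cytosolic ribosomal proteins had 5.33% lower and the oxidative phosphorylation genes 5.13%.

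Whether the distribution between pools differed by genotype was tested as the difference of the changes (METTL7A1 minus mock), called the shift to polysomes. No member and no other tested gene passed (0% of 12224 genes in either direction, edgeR's quasi-likelihood test), and the smallest adjusted p among members was 0.114. An unadjusted p below 0.05 was found for 26 of the 77 members, of which 23 were lower. Of all 12224 tested genes 1911 had such a p, of which 1092 were lower. The median shift was -0.26 for the members and -0.01 for all genes. The shift shares its libraries with the comparisons above, and is not independent of them.

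The lowest shifts were those of Mrpl54 (-0.97, SE 0.29, 95% confidence interval -1.63 to -0.31, adjusted p = 0.137), Mrps11 (-0.96, SE 0.21, adjusted p = 0.114) and Mrps24 (-0.91, SE 0.28, adjusted p = 0.142). For each of them the sub-polysomal values given above were higher in METTL7A1 cells while the polysomal values overlapped. The highest were Mrps5 (0.69, SE 0.24, adjusted p = 0.177), Mrps9 (0.51, adjusted p = 0.231) and Mrpl16 (0.49, adjusted p = 0.271). The members of at most 150 residues had a median shift of -0.39 and those above 250 residues 0.07. By GC content, the 26 lowest members had a median shift of -0.02, the 25 in the middle -0.26 and the 26 highest -0.46, where all genes in these ranges had 0.20, 0.06 and -0.30. Spearman's rho of the shift was -0.54 with GC content and 0.41 with protein length over the members, and -0.48 and 0.19 over all genes, as a description.

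The method decided how many members passed. DESeq2 called 12 lower and 0 higher, where it called 3.26% of 6536 genes lower. These were Mrpl54, Mrps11, Mrpl27, Mrpl14, Mrps16, Mrpl12, Mrpl58, Mrpl20, Mrpl37, Mrps6, Mrpl17 and Mrpl10. Without the filter on low counts edgeR called 5 lower (Mrpl54, Mrps11, Mrps24, Mrpl27 and Mrpl14, with 0.453% of genes lower), and without mock replicate A it called 4 (Mrpl54, Mrps24, Mrpl27 and Mrpl14, with 0.434%). limma-voom called 0. With GC offsets the shift of Mrpl54 was -0.51 (adjusted p = 0.408).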

How the data were processed

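Raw counts per gene for 12 libraries, as deposited by the authors, were analysed. Per the labels and the study's methods, stranded total RNA libraries with rRNA removed were sequenced paired-end, demultiplexed (bcl2fastq 2.20.0.422), trimmed, aligned to mm10 with STAR 2.5.3a and counted with featureCounts on GRCm38 annotation. The strand and multimapping settings are not given in the sources used here.

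The 12224 genes that reached 1 CPM in 3 or more libraries were fitted with edgeR 4.0.16 (R 4.3.3): TMM factors, 1 quasi-likelihood fit of the 4 groups with 8 residual degrees of freedom, contrasts for the 5 comparisons, and Benjamini-Hochberg adjustment over all tested genes. A call was an adjusted p below 0.05. CPM values use TMM factors, from 0.806 to 0.977 in sub-polysomal and from 1.11 to 1.23 in polysomal libraries, and 3 counts correspond to 0.372 to 1.69 CPM. Intervals are 95%. The fit was tested on simulated data. Protein and leader lengths, GC content and start windows come from the principal transcript of the GRCm38 annotation. Alternatives were RLE factors, library totals, Actb scaling, other filters, DESeq2 1.42.0, limma 3.58.1, separate fits, a replicate block, the study's thresholds and leaving out each replicate. GC offsets and leaving out the shallowest library were chosen after seeing the data.

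Libraries with the same letter did not pair: the correlation of their deviations ran from -0.29 to 0.11. Between different letters it ran from -0.21 to 0.33. The highest were mock sub-polysomal B with polysomal C (0.33) and sub-polysomal C with polysomal B (0.23). The reason was not tested. Named members are the 3 with the largest and the 3 with the smallest change per comparison at a mean of at least 5 CPM, the 3 highest and 3 lowest per length, members set apart by place or role, and the extremes of the other lists. Mrpl9, Mrps2, Mrpl20 beside its level, and the members DESeq2 called were named after their values were seen. The members and lists were chosen with earlier results of these data known.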

Additional observations from a re-analysis of the deposited data

How the results depend on the processing

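The number of members called between pools, both directions together, moved by less than 1.5 times under the alternatives run, except at the study's thresholds (10 in mock and 19 in METTL7A1 cells, and 0 in both comparisons of genotypes). Scaling to Actb gave 3 called members in polysomal and 36 in sub-polysomal RNA between genotypes, and GC offsets gave 8 in polysomal RNA. For the shift, leaving the filter out gave 5 and DESeq2 12. Library totals turned 51 lower and 4 higher into 33 and 12 (mock) and 56 and 4 into 45 and 17 (METTL7A1), and put the polysomal over sub-polysomal sums at 0.782 (mock) and 0.646 (METTL7A1), and Actb scaling put the latter at 0.395. The exon length of the table gave a rho of 0.404 and 0.493. Leaving out 1 replicate gave 0 to 11 calls between genotypes in polysomal RNA and 16 to 22 in sub-polysomal RNA, 0 to 4 for the shift, 46 to 57 and 57 to 62 between pools, a rho of 0.568 to 0.653 and 0.725 to 0.736, and sum ratios of 0.566 to 0.623 and 0.457 to 0.471. The cause was not tested. With a replicate block, 55 (3 higher, 52 lower) and 60 (4 and 56) members were called between pools and 0 for the shift. Of the called members, 53 of 55 and 57 of 60 between pools, and 5 of 5 and 22 of 22 between genotypes, kept their sign under each alternative. Across all alternatives 34 of the 55, 47 of the 60, 0 of the 5 and 11 of the 22 called members kept their call. Counts of under 50 a library limit Mrps36.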
